A study of Homo sapiens with 6 samples.

Results

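Condensin and cohesin are ring-shaped protein complexes built around a pair of SMC ATPases, a kleisin that closes the ring, and subunits made of HEAT repeats. Condensin folds chromosomes for mitosis. Its SMC2 and SMC4 core is shared by condensin I, which adds NCAPD2, NCAPG and NCAPH, and condensin II, which adds NCAPD3, NCAPG2 and NCAPH2. Cohesin, built from SMC1A, SMC3, the kleisin RAD21 and either STAG1 or STAG2, holds sister chromatids together from S phase to anaphase and also forms chromatin loops in interphase. The members described here are 10 genes of these complexes, 7 of condensin (SMC2, SMC4, NCAPD2, NCAPD3, NCAPG, NCAPG2, NCAPH) and 3 of cohesin (SMC1A, SMC3, RAD21), found by symbol among the 20388 genes of the table. All 10 were expressed above the limit for testing, a mean of at least 1 FPKM, which 11573 genes reached. The comparison asks how their mRNA levels differed between the 2 groups of the study, and how condensin compared with cohesin.

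Total RNA of MHCC-97H cells, an established line of human hepatocellular carcinoma labelled wild type, was sequenced in 6 libraries. The controls (3 libraries) received DMSO, the solvent, for 24 h, and the treated cells (3 libraries) received GK921 at 2 µM for 24 h, a compound that inhibits transglutaminase 2 (TGM2). The labels do not state whether replicates were separate cultures, so the p-values describe the spread among libraries, possibly of technical origin only. Levels are in FPKM, fragments scaled to transcript length and to the mapped total. Genes can thus be set side by side within a library, but only roughly, since no source used here gives the transcript lengths.

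Of the liver markers, the keratin genes KRT8 and KRT18 were high (summed with the other 9 markers, 2395 to 2401 FPKM in DMSO and 1879 to 1938 after GK921), and the liver transcription factor gene HNF4A averaged 9.11 FPKM in DMSO, whereas ALB, APOA1 and SERPINA1 were near 0 and GPC3 was listed at 0 in all 6 libraries. Of the 6 leukocyte markers 2 averaged at least 1 FPKM over the libraries, CD68, a lysosomal protein gene that many cell types express (109 FPKM in DMSO and 99.7 FPKM after GK921), and LYZ (0.303 and 2.03 FPKM), while PTPRC was at most 0.68 FPKM. The list summed to 105 to 113 FPKM in DMSO and 96.7 to 112 FPKM after GK921. Of the 4 endothelial markers 2 did, PECAM1 (3.83 and 3.94 FPKM) and KDR (1.62 and 2.69 FPKM), while CDH5 was listed at 0 in all libraries, and the list summed to 5.23 to 5.77 and 6.20 to 7.85 FPKM. None of the 5 fibroblast and stellate markers did: COL1A1 was at most 0.02 FPKM, PDGFRB went from 0.0167 to 0.327 FPKM and LRAT from 0.0833 to 0.547 FPKM, and the list summed to 0.15 to 0.31 FPKM and 0.78 to 1.17 FPKM. The sums of the endothelial and the fibroblast lists were thus higher after GK921 with no overlap, and their part in the results was not tested. Across tested genes, the correlation was 0.993 to 0.995 within a group and 0.914 between groups. The relative depth, read from the steps between low values, was 0.873 to 1 in DMSO and 0.768 to 0.863 after GK921. The median tested gene was 0.16 higher after GK921 on the log2 scale.

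The promoters of 4 members are shown for description. NCAPG and NCAPD2 are the condensin members that fell most and least. SMC1A and SMC3 are the SMC partners of cohesin, of which only SMC1A was called. Each window runs from 250 bases before to 50 bases after a RefSeq start (GRCh38.p14), printed 5′ to 3′ on the gene's strand. The first start listed for each gene was used, and matches and positions depend on it. For NCAPD2 the whole window lies after the annotated gene start given below (6493356). Capitals mark matches, on either strand, to motifs known from cell cycle promoters: CHR (TTTGAA or TTCGAA), the CCAAT box (CCAAT) and E2F (TTTCCCGC, TTTGGCGC, TTTCGCGC or TTCCCGCC, some of which overlap).
NCAPG promoter (chr4:17810729-17811028, strand +): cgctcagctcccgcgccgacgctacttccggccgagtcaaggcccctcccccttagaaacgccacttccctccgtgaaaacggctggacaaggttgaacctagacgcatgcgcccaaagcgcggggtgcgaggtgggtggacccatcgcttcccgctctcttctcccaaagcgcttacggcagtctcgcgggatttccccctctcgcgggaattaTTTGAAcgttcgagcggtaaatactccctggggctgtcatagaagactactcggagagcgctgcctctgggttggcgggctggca
NCAPD2 promoter (chr12:6493852-6494151, strand +): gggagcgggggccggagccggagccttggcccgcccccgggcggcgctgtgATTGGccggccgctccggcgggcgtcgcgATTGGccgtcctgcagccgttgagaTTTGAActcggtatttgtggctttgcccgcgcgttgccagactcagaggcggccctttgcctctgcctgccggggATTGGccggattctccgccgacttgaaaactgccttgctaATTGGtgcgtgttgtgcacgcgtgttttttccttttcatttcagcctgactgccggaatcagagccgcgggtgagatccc
SMC1A promoter (chrX:53422679-53422978, strand -): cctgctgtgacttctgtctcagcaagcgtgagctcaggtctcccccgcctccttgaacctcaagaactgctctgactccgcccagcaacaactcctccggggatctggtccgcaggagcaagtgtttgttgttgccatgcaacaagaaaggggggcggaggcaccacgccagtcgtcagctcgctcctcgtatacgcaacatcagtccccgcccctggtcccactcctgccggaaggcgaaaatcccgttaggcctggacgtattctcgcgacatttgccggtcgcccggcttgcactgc
SMC3 promoter (chr10:110567445-110567744, strand +): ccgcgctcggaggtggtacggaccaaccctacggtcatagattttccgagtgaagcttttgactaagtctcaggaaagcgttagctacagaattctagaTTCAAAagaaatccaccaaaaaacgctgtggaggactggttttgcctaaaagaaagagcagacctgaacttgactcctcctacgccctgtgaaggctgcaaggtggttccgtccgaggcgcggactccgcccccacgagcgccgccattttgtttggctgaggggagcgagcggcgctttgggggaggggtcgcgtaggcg
Counting bases from the start, with -1 just before it, the CHR letters began at -35 in NCAPG and at -145 in NCAPD2, which also held CCAAT letters at 4 places. SMC3 held CHR letters on the other strand at -151, and SMC1A held none of the motifs. Promoters matched for all 7 condensin members and for 2 of the 3 cohesin members (not RAD21). CHR letters, on either strand, were in 5 of the 7 condensin windows (SMC2, SMC4, NCAPD2, NCAPG, NCAPG2) and in 1 of the 2 cohesin windows. Of 27305 promoters of the same length, 16.6% held them. In SMC2 (at -3) and SMC4 (at -75) they lay on the other strand, as in SMC3. In NCAPG2 they began after the start, at 36. CCAAT letters were in 2 of the 7 condensin windows (NCAPD2, NCAPH) and in neither cohesin window, against 35.7% of all promoters. E2F letters were in none of these 9 windows, against 5.07% of all promoters. A match is a description of the sequence only, and binding was not measured.

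All 7 condensin members fell after GK921, by 2.57-fold to 9.91-fold, and of the cohesin members SMC1A fell 2.40-fold, RAD21 fell 1.54-fold and SMC3 did not pass the test. A gene is called lower or higher at a limma adjusted p under 0.05, on the log2(FPKM + 1) scale. Among all tested genes 75.9% were called, 29.2% lower and 46.8% higher. The GK921 values lay below the DMSO values without overlap for all 10 members, where that held for 30.0% of tested genes, and the groups did not overlap in either direction for 78.0%. By size of change, 8 of 10 were called with a log2 change below -1 (all 7 condensin members and SMC1A), against 6.24% of tested genes, and 4 of 10 (NCAPG, NCAPG2, NCAPD3 and NCAPH) with one below -2, against 1.62%. The median log2 change was -2.21 over the condensin members and -0.62 over the cohesin members, against 0.16 over all tested genes. The split of calls over all genes depended on the scaling: 5411 genes were higher and 3378 lower as deposited, and 4211 and 4377 with median-ratio rescaling. The 9 members called lower were called lower under all 5 scalings of the libraries. In RNA from bulk cultures, fewer cells in a cell cycle stage and less RNA per cell cannot be told apart.

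**Figure D1:**
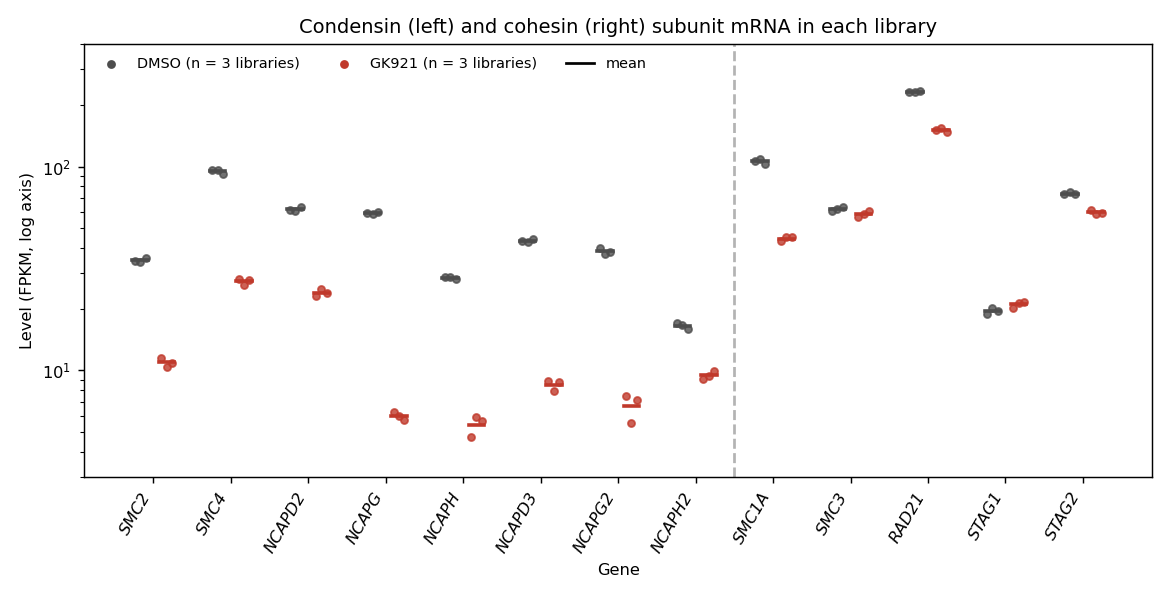
FPKM of 8 condensin genes (left of the dashed line) and 5 cohesin genes (right) in each of 6 libraries, on a log axis; points are libraries and bars are group means. Every condensin gene was lower in the 3 GK921 libraries (red) than in the 3 DMSO libraries (grey), while SMC3 and STAG1 lay close to their DMSO levels.

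Both SMC partners of condensin fell, by similar amounts. SMC2 (chromosome 9, 104094260 to 104141417 in GRCh38) was at 34.4, 33.9 and 35.6 FPKM in DMSO and at 11.6, 10.4 and 10.9 FPKM after GK921. Its log2 change was -1.58 ± 0.060 (SE, n = 3 libraries per group, as for every change below; limma adjusted p = 3.16e-08). SMC4 (chromosome 3, 160399274 to 160434962) was at 95.9, 96.7 and 92.2 FPKM and fell to 28.2, 26.3 and 27.9 FPKM, a log2 change of -1.75 ± 0.045 (limma adjusted p = 3.36e-09). All 3 GK921 values of each gene lay far below its lowest DMSO value, with a coefficient of variation of 5.29% for SMC2 and 3.68% for SMC4.

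Condensin I subunits spanned the range of the 7 condensin members. NCAPG (chromosome 4, 17810902 to 17844862), a HEAT-repeat subunit, was at 59.2, 58.6 and 59.7 FPKM in DMSO and at 6.22, 5.97 and 5.72 FPKM after GK921. This was 9.91-fold lower, with a log2 change of -3.11 ± 0.056 (limma adjusted p = 5.25e-10), and only 25 of the 11573 tested genes changed further downward. The kleisin NCAPH (chromosome 2, 96335787 to 96373845) was at 28.8, 28.8 and 28.2 FPKM and fell to 4.73, 5.89 and 5.62 FPKM, a log2 change of -2.21 ± 0.082 (limma adjusted p = 2.66e-08). Its GK921 libraries were less even than its DMSO libraries, with coefficients of variation of 11.2% and 1.11%. NCAPD2 (chromosome 12, 6493356 to 6531955), the other HEAT-repeat subunit of condensin I, was at 61.6, 60.6 and 63.2 FPKM in DMSO and at 23.1, 25.0 and 24.0 FPKM after GK921. Its fall of 2.57-fold (log2 change -1.33 ± 0.048, limma adjusted p = 2.25e-08) was the smallest of the 7 condensin members. Of its 6487 annotated exon bases, 486 overlap MRPL51 on the opposite strand, which averaged 475 FPKM in DMSO and 312 FPKM after GK921, and no source used here says whether fragments were counted by strand. The part of this overlap in the NCAPD2 values was not tested. For NCAPG, 1631 of 4921 exon bases overlap LCORL on the opposite strand, which averaged 2.96 and 3.94 FPKM. Other members share exon bases with an antisense neighbour too, among them SMC4 with TRIM59 (1561 of 8457 bases, with TRIM59 at 7.25 and 5.25 FPKM) and RAD21 with UTP23 (518 of 6192 bases, with UTP23 at 40.5 and 43.2 FPKM).

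Condensin II, which unlike condensin I is nuclear throughout the cell cycle, lost mRNA of all its subunits as well. NCAPD3 (chromosome 11, 134150119 to 134225454) was at 43.0, 42.6 and 44.3 FPKM in DMSO and at 8.83, 7.92 and 8.77 FPKM after GK921, a log2 change of -2.22 ± 0.061 (limma adjusted p = 5.04e-09). NCAPG2 (chromosome 7, 158631311 to 158704829) was at 39.7, 37.1 and 38.3 FPKM and fell to 7.48, 5.51 and 7.12 FPKM, a log2 change of -2.36 ± 0.099 (limma adjusted p = 5.91e-08). Replicate 2 was the lowest of the GK921 libraries for both genes. NCAPH2, the kleisin of condensin II and no member of the chosen set, went from 17.1, 16.6 and 16.0 FPKM to 9.10, 9.36 and 9.96 FPKM. Its fall of 1.75-fold (log2 change -0.75 ± 0.067, limma adjusted p = 8.68e-06) was the smallest among the 8 condensin genes. The regulatory subunits of condensin I summed to 150 ± 1.56 FPKM in DMSO and 35.4 ± 1.41 FPKM after GK921, and those of condensin II to 98.3 ± 1.75 and 24.7 ± 1.65 FPKM (SD, n = 3). The ratio of these sums was 1.50 to 1.53 in DMSO and 1.34 to 1.62 after GK921, so the groups overlapped.

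Of the SMC partners of cohesin, SMC1A fell and SMC3 did not pass the test. SMC1A (chromosome X, 53374149 to 53422728) was at 107, 109 and 104 FPKM in DMSO and at 43.3, 45.0 and 44.9 FPKM after GK921, a log2 change of -1.24 ± 0.039 (limma adjusted p = 1.04e-08). SMC3 (chromosome 10, 110567691 to 110604636) was at 60.5, 61.8 and 63.2 FPKM and at 56.9, 58.5 and 60.4 FPKM. Its highest GK921 value lay just under its lowest DMSO value. The log2 change of SMC3 was -0.08 with a 95% interval of -0.171 to 0.017 (limma adjusted p = 0.118). The 95% interval of SMC1A was -1.333 to -1.156, with no overlap with that of SMC3. Against the median gene SMC3 was 0.24 lower, and it was called lower with median-ratio (-0.25, limma adjusted p = 0.000406), upper-quartile (-0.1875, 0.00252) and quantile (-0.15, 0.0106) scaling.

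The cohesin kleisin RAD21 (chromosome 8, 116845935 to 116874866), the subunit that separase cleaves at anaphase, was the most abundant member in both groups. It was at 232, 232 and 236 FPKM in DMSO and at 152, 154 and 148 FPKM after GK921, a fall of 1.54-fold (log2 change -0.62 ± 0.029, limma adjusted p = 1.21e-07). The HEAT-repeat subunits of cohesin, STAG1 and STAG2, are no members. STAG2 fell 1.24-fold from 73.4, 74.8 and 73.1 FPKM to 61.4, 58.8 and 58.9 FPKM (log2 change -0.30 ± 0.038, limma adjusted p = 7.99e-05). That call was lost in a test against a 1.2-fold change (limma treat, adjusted p = 0.287). STAG1 was at 18.8, 20.2 and 19.5 FPKM and at 20.3, 21.4 and 21.7 FPKM (log2 change 0.11 ± 0.058, limma adjusted p = 0.12), and its sign turned to -0.06 with median-ratio and -0.04 with quantile scaling.

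Set beside each other, the summed condensin mRNA was 4.05-fold lower after GK921 and the summed cohesin mRNA 1.58-fold lower. The 7 condensin members summed to 363, 358 and 361 FPKM in the DMSO libraries and to 90.1, 87.0 and 90.0 FPKM after GK921. The 3 cohesin members summed to 399, 403 and 403 FPKM and to 252, 257 and 254 FPKM. The ratio of these sums was therefore 0.898 ± 0.0095 in DMSO and 0.350 ± 0.0106 after GK921 (SD, n = 3), with no overlap. RAD21 was the largest part of the cohesin sum (233 FPKM in DMSO and 151 FPKM after GK921). By gene the cohesin members were lower by 1.54-fold (RAD21), 2.40-fold (SMC1A) and 1.06-fold (SMC3, not called). On the log2(FPKM + 1) scale the mean of the condensin members lay 1.25 below that of the cohesin members in DMSO (-1.25 ± 0.021) and 2.69 below it after GK921 (-2.69 ± 0.050), a change of -1.43. The condensin member that fell least, NCAPD2, was still close to the cohesin member that fell most, SMC1A (-1.33 and -1.24). Core genes that are no members were left out of these sums and means. Among them NCAPH2 of condensin fell less than SMC1A (-0.75), and STAG2 and STAG1 of cohesin were at -0.30 and 0.11. No p is given for these sums and means, because the members were chosen with earlier results of these data known.

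**Figure D2:**
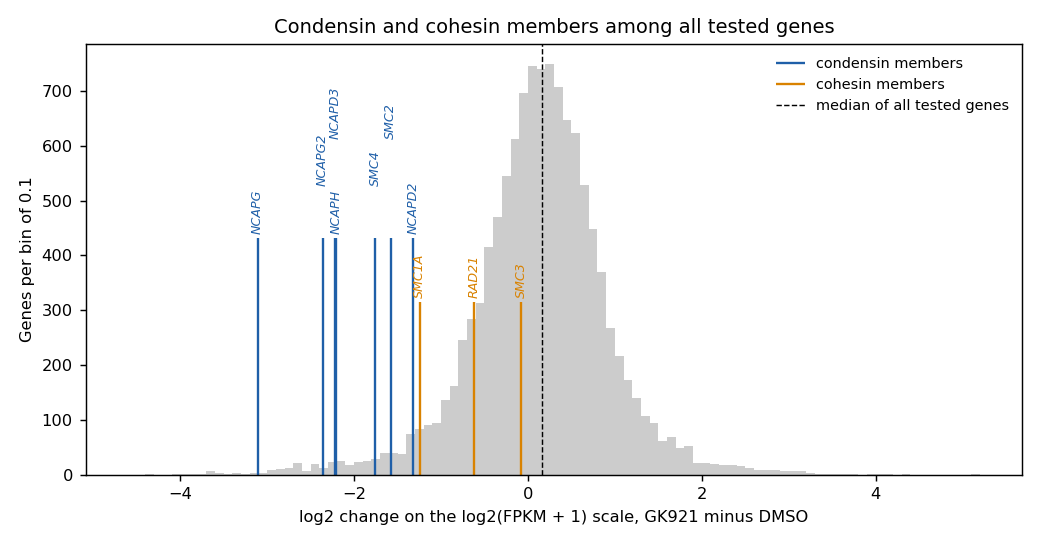
Number of tested genes by log2 change on the log2(FPKM + 1) scale (grey bins of 0.1), with the 7 condensin members (blue lines) and 3 cohesin members (orange lines) marked by their values. The condensin members lay from -3.11 to -1.33 and the cohesin members from -1.24 to -0.08, all below the median gene at 0.16 (dashed).

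The order of the members by level changed with the treatment. In DMSO it ran from RAD21 (233 FPKM) through SMC1A, SMC4, SMC3, NCAPD2, NCAPG, NCAPD3, NCAPG2 and SMC2 down to NCAPH (28.6 FPKM), and of neighbours in this order only the libraries of SMC3 and NCAPD2 overlapped. After GK921 it ran from RAD21 (151 FPKM) through SMC3, SMC1A, SMC4, NCAPD2, SMC2, NCAPD3, NCAPG2 and NCAPG down to NCAPH (5.41 FPKM), and the libraries of NCAPG2 overlapped those of NCAPG, as did those of NCAPG and NCAPH. SMC3 thus stood above SMC1A after GK921, and NCAPG went from the sixth to the ninth place. The order of genes at close levels also depends on the transcript lengths used, which are not known.

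Ratios within each library were taken for 5 subunit pairs, the SMC partners and the counterparts of condensin I and II. SMC2 over SMC4 was 0.359, 0.351 and 0.386 in DMSO and 0.411, 0.396 and 0.390 after GK921, a log2 change of 0.13. SMC1A over SMC3 went from 1.77, 1.76 and 1.64 to 0.761, 0.769 and 0.744 (log2 change -1.18). The partner with the higher FPKM in DMSO thus had the lower FPKM after GK921. NCAPD2 over NCAPD3 went from 1.43, 1.42 and 1.43 to 2.62, 3.16 and 2.74 (log2 change 0.99). The ratios of the other condensin I and II counterparts moved the opposite way to NCAPD2 over NCAPD3. NCAPD2 shares exon bases with the more abundant MRPL51 on the opposite strand, and the part of that overlap in its ratio was not tested. NCAPG over NCAPG2 went from 1.49, 1.58 and 1.56 to 0.832, 1.08 and 0.803 (log2 change -0.78), and NCAPH over NCAPH2 from 1.68, 1.73 and 1.76 to 0.520, 0.629 and 0.564 (log2 change -1.60). In each pair the groups did not overlap. A two-sided exact permutation test over the libraries gave p = 0.1 for each of the 5 pairs (0.1 adjusted over them), the smallest that 3 against 3 libraries can give, so no pair could pass 0.05.

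**Figure D3:**
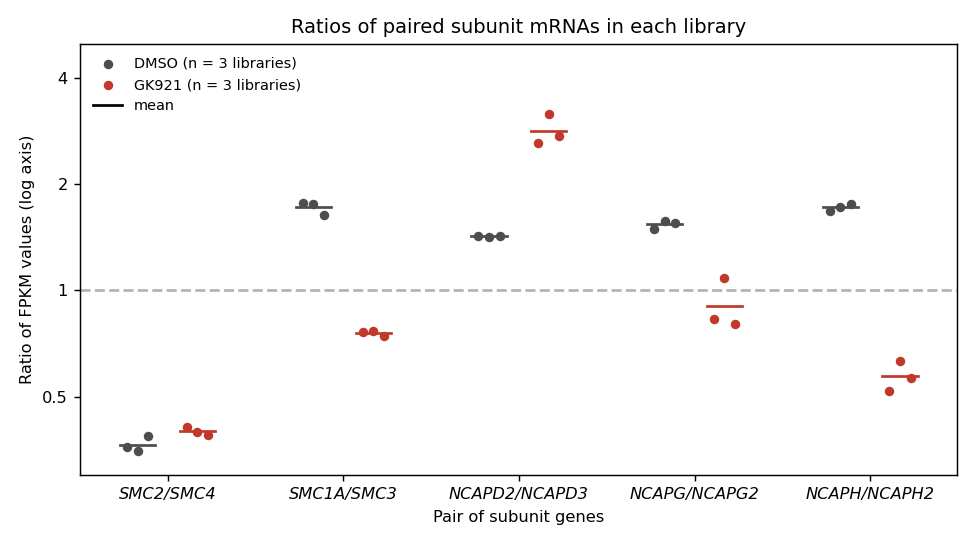
Ratio of the FPKM values of 5 pairs of subunit genes in each library, on a log axis; points are libraries (grey DMSO, red GK921), bars are group means and the dashed line marks equal levels. SMC2/SMC4 stayed between 0.351 and 0.411, while SMC1A/SMC3 and NCAPH/NCAPH2 crossed from above to below 1.

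The genes that act on cohesin were taken in 3 lists by role. In cohesion establishment, the steps that make cohesin hold sister chromatids as they are replicated, 8 of 10 genes fell, 1 rose and 1 (CHTF8) did not pass, with a median log2 change of -1.40. Over all tested genes 29.2% were called lower and 46.8% higher, and the median was 0.16. The acetyltransferases of SMC3 went in opposite directions. ESCO2, active in S phase, fell from 14.6, 12.8 and 12.3 FPKM to 0.93, 1.04 and 1.34 FPKM (log2 change -2.76 ± 0.115, limma adjusted p = 5.58e-08). ESCO1, active through the cell cycle, rose from 20.6, 19.2 and 18.6 FPKM to 44.8, 45.0 and 43.7 FPKM (log2 change 1.16 ± 0.053, limma adjusted p = 1.04e-07), a rise that was called under all 5 scalings. Sororin (CDCA5), which protects cohesin from release, was at 25.8, 25.6 and 24.7 FPKM and fell to 3.23, 3.79 and 2.88 FPKM, 7.68-fold lower. DSCC1, part of an alternative clamp loader at the replication fork, fell 6.87-fold. The other 5 that fell did so by 1.78-fold (TIPIN) to 3.96-fold (WDHD1).

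All 5 genes of cohesin protection and cleavage fell, with a median log2 change of -2.16, against 29.2% called lower and a median of 0.16 over all tested genes. Separase (ESPL1), the protease that cuts RAD21, was at 8.76, 9.49 and 8.72 FPKM in DMSO and at 1.06, 0.94 and 0.81 FPKM after GK921 (log2 change -2.37 ± 0.105, limma adjusted p = 8.40e-08). HASPIN, a histone kinase of centromeres, fell 7.14-fold. SGO1, shugoshin, which shields centromeric cohesin, fell from 22.4, 21.9 and 23.3 FPKM to 4.07, 4.10 and 4.57 FPKM. The separase inhibitor securin (PTTG1) fell 4.21-fold and SGO2 2.57-fold.

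Of 7 genes of cohesin loading, release and looping, 3 fell, 2 rose and 2 did not pass, with a median log2 change of -0.05. The share called in either direction was close to the 75.9% of all tested genes. Over all tested genes more were called higher (46.8%) than lower (29.2%), the reverse of this list, and the median was 0.16. CTCF, the zinc finger protein that stops cohesin at loop anchors, fell from 38.5, 38.2 and 34.3 FPKM to 26.5, 23.8 and 24.6 FPKM (1.48-fold, limma adjusted p = 5.07e-05). HDAC8, which deacetylates SMC3, fell from 2.59 ± 0.099 to 1.53 ± 0.306 FPKM (SD, n = 3), and PDS5B from 6.46 ± 0.455 to 4.45 ± 0.650 FPKM. In a test against a 1.2-fold change (limma treat), HDAC8 and PDS5B lost their calls (adjusted p = 0.0895 and 0.109). CTCF kept its call there (0.00252). WAPL, which opens the ring, was at 31.4, 30.8 and 32.0 FPKM in DMSO and at 38.9, 35.1 and 40.4 FPKM after GK921, and this rise (limma adjusted p = 0.00258) lost its call with median-ratio scaling (0.152). The loader gene NIPBL went from 12.0 ± 0.101 to 14.3 ± 0.590 FPKM (limma adjusted p = 0.00858), a rise whose limma adjusted p became 0.402 with quantile, 0.345 with median-ratio and 0.0933 with upper-quartile scaling. Of the meiotic cohesin subunits, STAG3 was at 7.20 ± 0.350 and 7.61 ± 0.453 FPKM (limma adjusted p = 0.458), and REC8, SMC1B and RAD21L1 were too low to be tested, at most 1.23 FPKM in any library.

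The third SMC complex, SMC5-SMC6, acts in DNA repair. Of its 7 genes, 2 fell, 2 rose and 3 did not pass, with a median log2 change of 0.01. The share that fell was near that of all tested genes, 29.2% (46.8% were called higher). NSMCE2, its SUMO ligase, rose from 57.3, 62.6 and 59.9 FPKM to 92.9, 101 and 104 FPKM (log2 change 0.72 ± 0.052, limma adjusted p = 2.19e-06). NSMCE3 rose 1.48-fold, and the kleisin NSMCE4A fell 1.34-fold. SMC5 was at 41.1 ± 1.08 and 36.3 ± 2.51 FPKM (limma adjusted p = 0.0204), a call lost without DMSO replicate 2 (0.0658), DMSO replicate 3 (0.0502) or GK921 replicate 3 (0.0623). SMC6 was at 10.8 ± 0.715 and 10.1 ± 0.701 FPKM (limma adjusted p = 0.39), and it was called lower with median-ratio (0.0229) and quantile (0.0159) scaling.

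**Figure D4:**
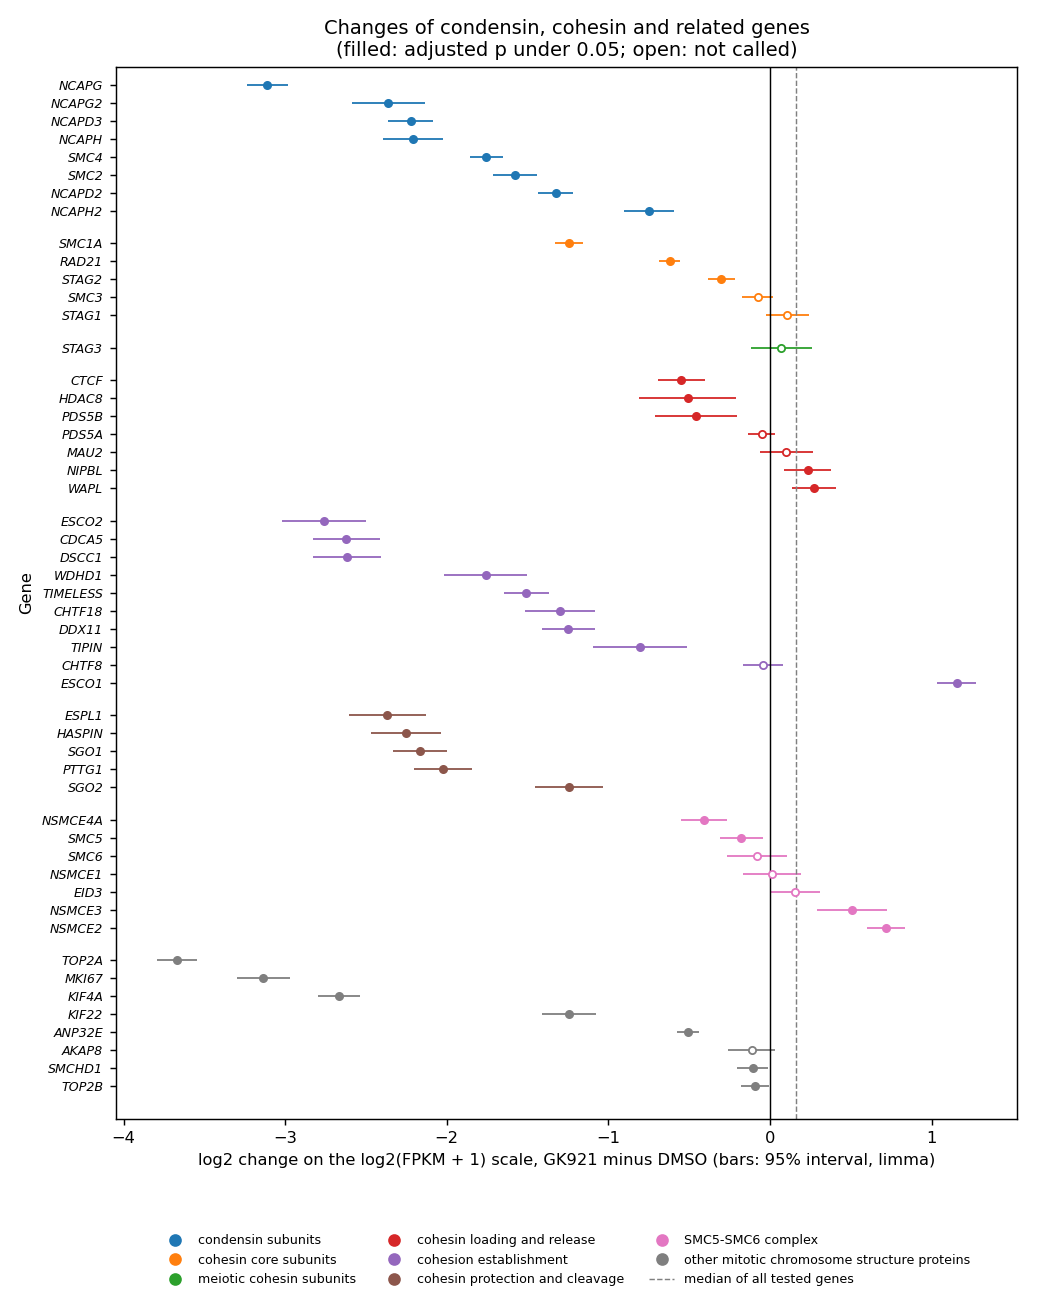
Log2 change on the log2(FPKM + 1) scale (horizontal, with 95% limma intervals) of 51 tested genes in 8 lists (colours), filled where called. Condensin, cohesion establishment and cleavage genes lay mostly below -1, with ESCO1 at 1.16 as the exception above 0. Loading genes lay from -0.55 to 0.27 and SMC5-SMC6 genes from -0.41 to 0.72, some of them called in each direction.

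The genes whose pattern over the 6 libraries was most like the mean of the condensin members, by the root mean square difference of log2(FPKM + 1) relative to each gene's DMSO mean, were TPX2, a spindle assembly factor (0.0256), SLC25A3, the mitochondrial phosphate carrier (0.0337), and MGAT4B, a Golgi glycosyltransferase (0.0351). TPX2 went from 167 ± 2.66 to 39.0 ± 0.267 FPKM (SD, n = 3). For the cohesin members they were ERAP2, an aminopeptidase of antigen processing (0.0135), MSN, the membrane linker moesin (0.0154), and DBI, an acyl-CoA binding protein (0.0172). MSN went from 619 ± 4.67 to 394 ± 0.705 FPKM. With 2 groups of 3 libraries, this measure ranks genes mainly by how close the size of their change is.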

How the data were processed

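RNA from 3 DMSO and 3 GK921 libraries was sequenced, and the authors deposited FPKM values, rounded to 2 decimals, for each symbol. Per the submitters' processing notes, FastQC 0.11.5, HISAT2, featureCounts, edgeR and hg38 were used, without roles; no source used here gives the annotation, strandedness or read totals, and absolute depth is unknown. Relative depth came from values between 0.5 and 4 FPKM, where libraries share the step of whole fragments (37 to 116 genes in each of 15 pairs). Groups and replicate numbers came from sample titles.

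Values were tested with limma 3.58.1 (R 4.3.3) on log2(FPKM + 1), keeping genes that averaged at least 1 FPKM, with treatment as the only term, an intensity trend and Benjamini-Hochberg adjustment over all 11573 genes. Log2 changes on this scale understate changes of low genes. Printed folds are ratios of mean FPKM. Subunit ratios were compared by an exact permutation test. Gene positions and exon overlaps came from GENCODE release 29 (GRCh38), whose release need not be the authors', and promoters from RefSeq (GRCh38.p14). Other settings tried were 2 pseudocounts, 2 expression limits, 4 ways to rescale, the replicate block, each library left out, no trend, array weights and a test against a 1.2-fold change. Members and lists were chosen with earlier results of these data known. Named genes were all condensin and cohesin core genes and, from every other list, up to 3 called genes with the largest change and the largest opposite one, or the 2 most abundant where none was called; CHTF8, TIPIN, WDHD1, SGO2, PTTG1, NIPBL, SMC1B, RAD21L1, SMC5, SMC6, the antisense neighbours and, in the closing section, TOP2B, SMCHD1, KIF22, ANP32E, AKAP8, PDS5A, MAU2, NSMCE1 and EID3 were named after their values were seen.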

Additional observations from a re-analysis of the deposited data

How the results depend on the processing

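The 7 condensin members, SMC1A and RAD21 were called lower under all 18 alternatives, and SMC3 gained a call under the 3 rescalings named above. The test against a 1.2-fold change called 3595 genes higher and 2135 lower, and left 1 gene lower and 0 higher in cohesin loading and release and 1 lower in the SMC5-SMC6 complex. The loading genes called higher were 0 with median-ratio scaling and 1 each with upper-quartile and quantile scaling. Leaving out each library in turn gave 1 to 2 SMC5-SMC6 genes called lower. The change of condensin minus cohesin was -1.53 with a pseudocount of 0.1, -1.11 with one of 5 and -1.52 with quantile scaling, and -1.46 to -1.41 with a library left out. Other genes not called as deposited gained a call lower. These were PDS5A (limma adjusted p = 0.000426, 0.00311 and 0.0115) and CHTF8 (0.00528, 0.0264 and 0.0346) under those same 3 rescalings (median-ratio first, then upper-quartile, then quantile), beside SMC6 and AKAP8. EID3 was called higher with libraries rescaled to the same total (0.0365), with array weights (0.0481) and without GK921 replicate 2 (0.0238). Some uncalled genes changed sign in rescalings. With upper-quartile scaling STAG3 was at -0.0285, MAU2 at -0.000427 and NSMCE1 at -0.0966. With quantile scaling STAG1 was at -0.0376, STAG3 at -0.127, MAU2 at -0.0798 and NSMCE1 at -0.0963. With median-ratio scaling STAG1 was at -0.0607, STAG3 at -0.0846, MAU2 at -0.0584, NSMCE1 at -0.158 and EID3 at -0.0131. NSMCE1 lay between -0.0655 and 0.0928 with a library left out. The cause was not tested.

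Whether the replicate numbers pair the libraries could not be told. The deviations of same-numbered libraries from their group means correlated at 0.0305, 0.0473 and -0.00207 for replicates 1, 2 and 3. Replicates 1 and 2 correlated best with their own number, and replicate 3 did not. Such low correlations, with 3 libraries per group, cannot decide whether cultures were shared. With the number as a replicate block 5351 genes were higher and 3355 lower, the called members were the same, and the subunit ratios gave the same log2 changes, 0.13 (SMC2/SMC4), -1.18 (SMC1A/SMC3), 0.99 (NCAPD2/NCAPD3), -0.78 (NCAPG/NCAPG2) and -1.60 (NCAPH/NCAPH2), with an exact p of 0.25, the smallest 3 pairs allow. The block ended the calls of TOP2B and SMCHD1 (limma adjusted p = 0.0742 and 0.0615). Without read totals no counting error could be given for low values such as those of ESPL1 and ESCO2 after GK921.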

Other observations

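A further list around these complexes holds proteins of mitotic chromosomes and some relatives or chromatin proteins with other roles (TOP2B, ANP32E and SMCHD1, described below). Of the 8 genes in this mixed list, 7 fell and 1 (AKAP8) did not pass, with a median log2 change of -0.88. Over all tested genes 29.2% were called lower and the median was 0.16. AKAP8 was called lower with median-ratio (limma adjusted p = 0.00295), upper-quartile (0.0113) and quantile (0.00549) scaling, which brought the count to 8. The count was 5 with libraries rescaled to the same total, with the replicate block, with no intensity trend and in the test against a 1.2-fold change, where TOP2B and SMCHD1 lost their calls, and 5 to 6 with a library left out. The topoisomerase paralogs differed in size of change. TOP2A, the isoform of dividing cells that decatenates sister chromatids, was at 144, 145 and 144 FPKM in DMSO and at 9.92, 11.3 and 10.1 FPKM after GK921 (log2 change -3.67 ± 0.055, limma adjusted p = 2.31e-10). TOP2B, the isoform also found in cells that do not divide, was at 66.2, 69.3 and 68.5 FPKM and at 63.4, 64.2 and 63.6 FPKM (log2 change -0.09 ± 0.037, limma adjusted p = 0.0474), a call lost without any one library other than DMSO replicate 1. Without each of those 5 libraries its limma adjusted p was 0.0693 to 0.139.

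MKI67, the Ki-67 protein that coats mitotic chromosomes, fell from 45.3, 46.5 and 44.7 FPKM to 3.87, 4.65 and 4.39 FPKM (log2 change -3.14 ± 0.072, limma adjusted p = 1.93e-09). KIF4A, the chromokinesin that works with condensin on chromosome arms, fell 7.11-fold from 50.6 ± 0.610 to 7.12 ± 0.339 FPKM (SD, n = 3). KIF22, another chromokinesin, fell 2.49-fold and ANP32E, a histone chaperone, 1.42-fold. SMCHD1, a non-canonical SMC protein of chromatin silencing, was at 49.6 ± 1.27 and 45.9 ± 0.672 FPKM (limma adjusted p = 0.0389), a call lost without any single library (0.052 to 0.129).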
